A study of Arabidopsis thaliana with 45 samples.

Results

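Roots of Arabidopsis seedlings that had been turned on a clinostat (CR) were compared with roots that had spent the same total time in a Kennedy Fixation Tube (KFT) without rotation (Q3R). The comparison took 6 libraries, 3 of CR and 3 of Q3R, of the 45 in the series. Their labels define them, and the comparison was chosen with earlier results of these data known. All plants were wild type Col-0, 7 days old, grown on coupons of solid medium under a 24 h light cycle with 8 h of dark storage. By the sample labels, Q3R plants spent 4 h and 18 min in the KFT. CR plants spent 4 h and 14 min there and were then rotated at 1 rpm for 4 min. Both were then fixed in RNAlater, a salt solution that stops RNA turnover. The paper's own text is not uniform on when the rotation began. Each library held the roots of 2 pooled plants, and the 3 libraries of a condition came from 1 KFT with 2 coupons. Rotation and vessel therefore cannot be told apart, and p-values measure only the spread between libraries of 1 vessel. In bulk roots, fewer cells of a type and less RNA per cell cannot be told apart either.

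Roots sense gravity mainly in the columella cells of the cap, where starch-filled plastids settle onto the lower side of the cell. Their movement redirects PIN auxin efflux carriers, auxin gathers on the lower flank, and that flank grows less, so that the tip bends down. A clinostat does not remove gravity. It keeps changing the direction of the vector, so that plastids have no lasting lower side, and turning also moves and shakes the plant, to which touch and calcium genes are known to respond.

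Counts assigned to genes were 61087439, 90007788 and 53884458 in Q3R1, Q3R2 and Q3R3, and 117091661, 34273236 and 48974482 in CR1, CR2 and CR3. CR1 was the deepest library of the comparison. Q3R3 stood apart, with correlations with the other 5 libraries of 0.917 to 0.940 on log2 CPM (CPM is a gene's count scaled to a common library size). The label of root held: the summed level of 13 root identity genes was 354 to 395 CPM in Q3R and 339 to 378 CPM in CR. The 5 root cap markers summed to 26.1, 37.5 and 32.6 CPM in Q3R and to 39.5, 49.9 and 39.1 CPM in CR. These did not overlap, although the exact two-sided permutation p of 0.1 is the smallest that 3 against 3 libraries allow. A single marker separated the groups, the root cap gene AT1G65570 at 7.09, 12.4 and 8.5 CPM in Q3R and 14.2, 22.2 and 18.4 CPM in CR, and SMB, BRN1, BRN2 and FEZ each overlapped. The 23 green tissue markers, which are genes of photosynthesis, summed to 409 to 696 CPM in Q3R and 649 to 809 CPM in CR, and the 9 other unrotated root libraries (Q1R, Q2R and Q4R, from earlier and later in the same time course) ranged from 444 to 1100 CPM. Their part in the results below was not tested.

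With all 6 libraries, 1 gene differed between CR and Q3R. A differentially expressed gene (DEG) was a gene with an adjusted p up to 0.05 whose log2 fold change was 1 or more in either direction, from the quasi-likelihood test of edgeR with Benjamini-Hochberg adjustment. Of 21049 genes tested, 1 was higher in CR (0.00475%) and 0 were lower (0%). At an unadjusted p of at most 0.05 with the same fold, 184 genes were higher and 53 lower. DESeq2, the tool the study used, gave 34 higher and 9 lower on the same libraries. These are 0.137% and 0.0361% of the 24900 genes to which it gave a p-value. Some of these had no adjusted p and could not be called, so the shares of genes open to a call are greater.

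The DEG was BGLU30 (AT3G60140, chromosome 3, 22216540 to 22220824, plus strand of TAIR10.1), a beta-glucosidase also known as the dark-inducible gene DIN2, whose transcript is known to rise in darkness and sugar starvation. Its level was 10.6, 13.6 and 16.5 CPM in Q3R1, Q3R2 and Q3R3, and 39.8, 36.6 and 40.1 CPM in CR1, CR2 and CR3. Every CR library lay above every Q3R library. The log2 fold change was 1.53 ± 0.17 (SE, n = 3 and 3, edgeR adjusted p = 0.0493). Without CR1 it was 1.51 with an adjusted p of 0.00872 in the same edgeR test. The call rested on single libraries, since it was lost without Q3R1, Q3R2, CR2 or CR3. Across the unrotated time course BGLU30 varied more than between CR and Q3R, at 19.3, 3.27 and 17.9 CPM in Q1R, 113, 14.7 and 43.1 CPM in Q2R and 102, 70.0 and 96.1 CPM in Q4R. All 3 CR libraries thus lay inside the range of the 9 other unrotated libraries, and Q3R was on the low side of it.

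The 250 bases before the BGLU30 transcript start are shown because it was the gene called in both fits (TAIR10.1, chr3:22216290-22216539, plus strand, from RefSeq). They were searched on both strands for the G-box CACGTG, which bZIP and bHLH factors bind, and for TATCCA, an element known from sugar-repressed genes, and neither was found. A G-box occurred in 6.49% and TATCCA in 13.6% of windows of this length before 27443 protein-coding genes. No base is therefore in capitals.
BGLU30 promoter: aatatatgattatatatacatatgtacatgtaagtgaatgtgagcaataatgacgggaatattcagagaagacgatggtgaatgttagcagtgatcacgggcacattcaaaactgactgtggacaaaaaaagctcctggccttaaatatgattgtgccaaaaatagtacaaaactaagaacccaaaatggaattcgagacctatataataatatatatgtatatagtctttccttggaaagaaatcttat

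The genes next in order by DESeq2 included transporters and metabolic enzymes. With 6 libraries edgeR gave SWEET11, SWEET12, NMT1, GRI, PS2, ROSY1, RTNLB14, AT1G55260 and AT5G53880 an adjusted p of 0.199. It gave AT1G19960, AT1G61450 and AT1G16916 an adjusted p of 0.204 to 0.215. Among the genes with less transcript were SWEET11 and SWEET12, which export sucrose from cells, in leaves for loading into the phloem. SWEET11 (AT3G48740) was at 9.35, 38.3 and 14.3 CPM in Q3R and 3.12, 2.77 and 2.33 CPM in CR. SWEET12 (AT5G23660) was at 14.0, 43.0 and 9.88 CPM in Q3R and 3.43, 3.01 and 3.34 CPM in CR. Neither gene overlapped between groups, and Q3R2 was the highest library for both. Their log2 fold changes were -2.90 ± 0.45 and -2.76 ± 0.46 (SE, edgeR), and the DESeq2 adjusted p was 2.39e-10 and 0.00335. The other unrotated roots ran from 2.37 to 48.7 CPM for SWEET11 and from 5.87 to 87.2 CPM for SWEET12, so that CR lay below all of them for SWEET12 alone.

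NMT1 (AT3G18000), a phosphoethanolamine N-methyltransferase that makes the choline head group of membrane lipids, was at 306, 374 and 281 CPM in Q3R and 108, 168 and 155 CPM in CR. It gave a log2 fold change of -1.14 ± 0.18 (SE) and a DESeq2 adjusted p of 1.34e-07. The 9 other unrotated libraries held 114 to 284 CPM, so that Q3R1 and Q3R2 were above their range, CR1 was below it, and Q3R3, CR2 and CR3 were inside it. GRI (AT1G53130), an extracellular protein that regulates cell death set off by reactive oxygen species, was at 7.64, 8.88 and 10.2 CPM in Q3R and 3.92, 3.66 and 3.46 CPM in CR. PS2 (AT1G73010), a pyrophosphatase induced by phosphate starvation, was at 13.6, 9.03 and 7.96 CPM against 5.12, 3.54 and 3.38 CPM. In both genes the groups did not overlap, and the CR levels were inside the range of the other unrotated roots (2.71 to 9.3 CPM for GRI and 3.31 to 13.0 CPM for PS2).

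Among the genes with more transcript in CR was ROSY1 (AT2G16005), a sterol-binding protein known for a part in root gravitropism. It was at 11.2, 7.99 and 12.8 CPM in Q3R and 36.8, 20.6 and 25.5 CPM in CR, a log2 fold change of 1.39 ± 0.23 (SE), with a DESeq2 adjusted p of 2.96e-05. The other unrotated roots held 14.7 to 48.4 CPM, so every CR library was within their range and every Q3R library was below it. ATG8E (AT2G45170), a ubiquitin-like protein that coats autophagosomes, was chosen after its values were seen. It was at 69.6, 70.1 and 68.7 CPM in Q3R, 108, 125 and 127 CPM in CR and 117 to 172 CPM in the other unrotated roots, so that CR1 and all Q3R libraries were below that range. ACA13 (AT3G22910), a plasma membrane calcium pump, was also chosen after its values were seen. Its level was 6.02, 4.49 and 4.91 CPM in Q3R and 10.3, 11 and 15.2 CPM in CR, with 3.46 to 22.9 CPM elsewhere in the time course. Where a CR level is inside the range of other unrotated roots, these values do not place the difference in CR rather than in Q3R.

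**Figure D1:**
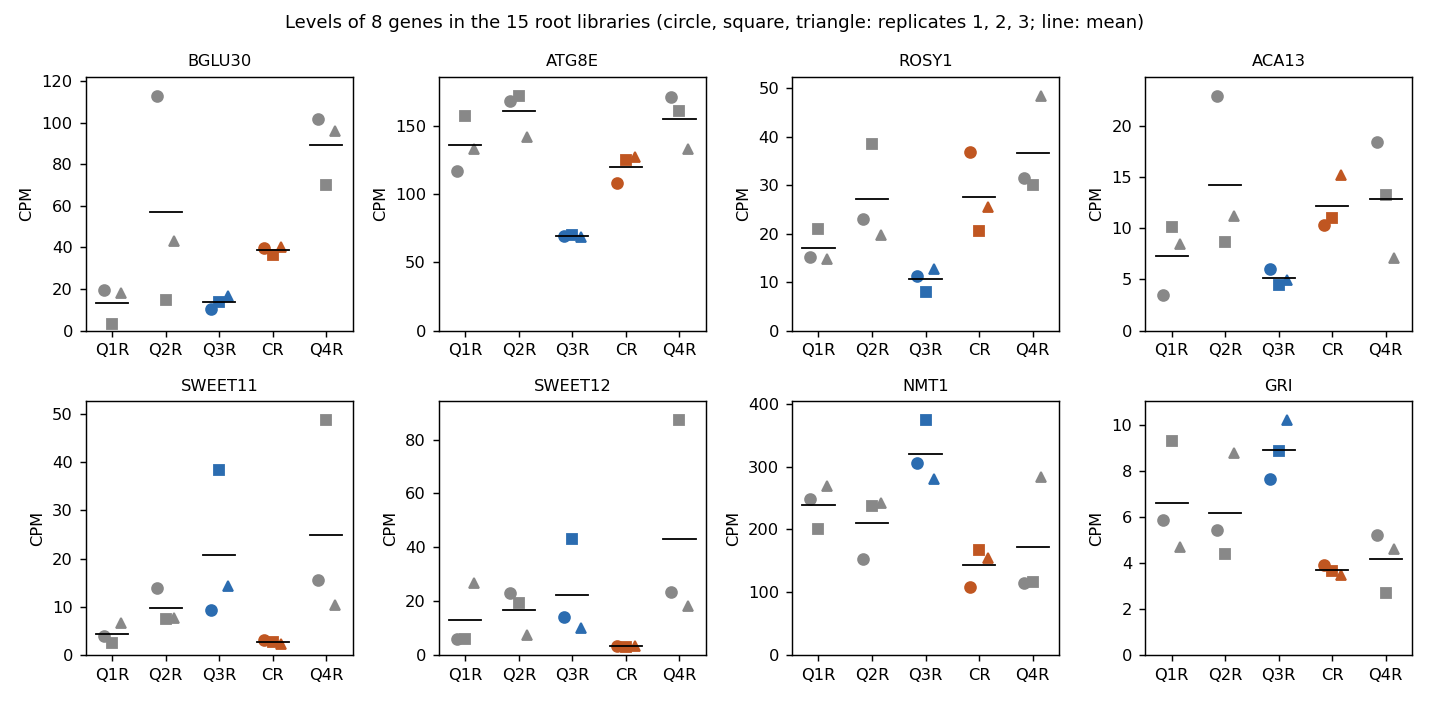
Levels in CPM (vertical axes, linear) of 8 genes in each library of CR, Q3R and the other unrotated roots, with 1 point for each library. BGLU30 in CR sat at 36.6 to 40.1 CPM, above the 10.6 to 16.5 CPM of Q3R and within the 3.27 to 113 CPM of the remaining roots.

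RTNLB14 (AT1G68230), a reticulon-like protein of the endoplasmic reticulum, was at 5.05, 4.78 and 4.37 CPM in Q3R and 8.61, 13.4 and 14.1 CPM in CR. AT1G55260, a lipid transfer protein, was at 5.04, 5.69 and 4.45 CPM in Q3R and 10.3, 12.9 and 14.1 CPM in CR. In both genes the groups did not overlap. For AT1G55260 each CR library was also above the 1.5 to 7.84 CPM of the other unrotated roots. For RTNLB14 those roots held 6.64 to 12.4 CPM. Every Q3R library was below that range, CR1 was inside it, and CR2 and CR3 were above it. The other 4 genes with the greatest higher fold changes by DESeq2, AT1G19960, AT1G61450, AT1G16916 and AT5G53880, code for proteins of unknown function, and their log2 fold changes were 1.3 to 1.38. AT5G53880 was at 15.8, 12.4 and 12 CPM in Q3R and 19.9, 42.2 and 36.5 CPM in CR, above the 6.89 to 17.9 CPM of the other unrotated roots in each CR library. Over the DESeq2 calls, all 3 CR libraries were above all 12 unrotated root libraries in 4 of the 34 higher genes and below them in 1 of the 9 lower genes. Over all 21049 genes tested by edgeR they were above in 0.684% and below in 0.542%. These are descriptions, since CR and Q3R values chose the genes.

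Leaving out CR1 changed the result from 1 DEG to 166. With CR2 and CR3 against the 3 Q3R libraries, 149 of 21352 genes rose (0.698%) and 17 fell (0.0796%) by the same edgeR rule. By adjusted p alone, with no fold limit, 499 rose (2.34%) and 321 fell (1.5%). DESeq2 gave 209 higher and 39 lower without CR1. No other single library had this effect: leaving out Q3R1, Q3R2, Q3R3, CR2 or CR3 instead gave 0 or 1 DEG. Of the genes DESeq2 called on 6 libraries, 30 of 34 higher and 8 of 9 lower were among the edgeR calls without CR1, which are 30 of 149 and 8 of 17.

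The greatest falls without CR1 were those of SWEET11 (-3.02, edgeR adjusted p = 0.0237) and SWEET12 (-2.81, edgeR adjusted p = 0.0322), followed by the oxygenase AT1G52820. AT1G52820, which shares its position with a gene on the opposite strand, was at 7.94, 15.9 and 8.76 CPM in Q3R and 1.83, 3.83 and 1.92 CPM in CR. The pectin lyase-like gene AT5G14650 was at 7.89, 16.7 and 21.6 CPM against 6.6, 5.95 and 4.45 CPM, and the aspartyl protease gene AT5G19110 at 24.9, 40.8 and 42.4 CPM against 17.2, 19.0 and 11.7 CPM. For these 5 genes CR1, like CR2 and CR3, was below all Q3R libraries. The other unrotated roots ran from 1.03 to 40.8 CPM for AT1G52820 and from 2.33 to 15.9 CPM for AT5G14650. All CR libraries were inside both ranges, and Q3R2 and Q3R3 were above that of AT5G14650. For AT5G19110 the range was 16.5 to 34.3 CPM, with CR1 and CR2 inside, CR3 below, and Q3R2 and Q3R3 above. AT3G54400 was lower mainly in CR2 and CR3, at 147, 176 and 138 CPM in Q3R and 119, 75.1 and 55.3 CPM in CR.

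The greatest rises without CR1 were in plastid genes, described below, and in genes with a wide range among unrotated roots. MLP28 (AT1G70830), of the major latex protein family, was at 0.558, 6.24 and 2.82 CPM in Q3R and 2.16, 18.5 and 46.9 CPM in CR, and the other unrotated roots ran from 0.559 to 103 CPM. AT2G05510 was at 206, 175 and 65.0 CPM in Q3R and 199, 538 and 1340 CPM in CR, with 51.1 to 597 CPM elsewhere. CR1 was within the Q3R range for both.

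The levels of these genes in each library are given as a description. CR1 did not enter their choice, but the Q3R libraries did, so a further library would tend to lie above Q3R in genes chosen as higher and below it in genes chosen as lower, and no share over all genes serves as the value without change. CR1 was above all 3 Q3R libraries in 86 of the 149 higher genes, within their range in 55 and below them in 8. For the 17 lower genes it was below all Q3R libraries in 14. The median log2 level over the Q3R mean in the 149 genes was 0.30 in CR1, 1.23 in CR2 and 1.15 in CR3, and from -0.19 to 0.48 in the other unrotated roots. In the 17 genes it was -0.60 in CR1, -1.07 in CR2 and -1.16 in CR3, and from -0.41 to 0.22 in the other unrotated roots. CR1 thus lay among the unrotated libraries for the higher genes, and beyond them, on the side of CR2 and CR3, for the lower genes. CR2 and CR3, whose values chose the genes, were above all 12 unrotated root libraries in 120 of the 149. Over all genes tested without CR1 they were above in 7.4%, a share that this choice makes unlike.

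**Figure D2:**
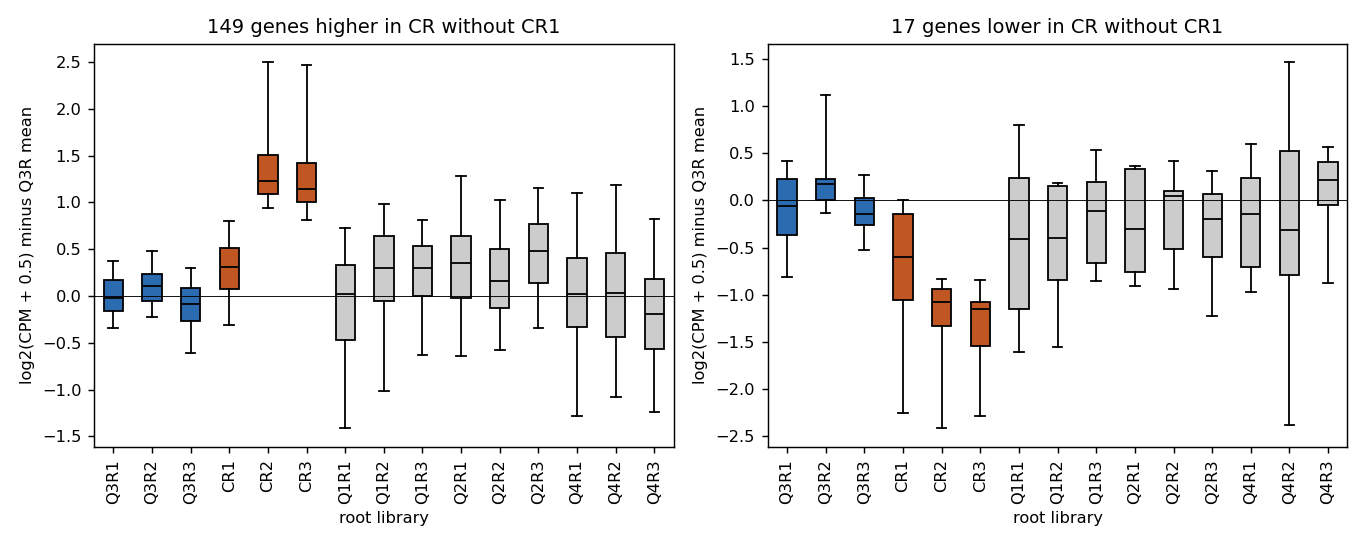
Median log2 level over the Q3R mean (vertical axis) of the genes called higher and lower without CR1, in each of the 15 root libraries. In the higher genes CR1 (0.30) sat with the unrotated roots, below CR2 and CR3 (1.23 and 1.15), and in the lower genes CR1 (-0.60) was beyond the unrotated roots (-0.41 to 0.22), short of CR2 and CR3 (-1.07 and -1.16).

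The 149 genes were short. Their median spliced length was 845 bases, against 1696 bases for all genes tested, and 94 of 143 with a length (65.7%) were up to 1000 bases long, against 16% of all genes. The 321 genes that fell by adjusted p alone were long, with a median of 2473 bases and 69.8% over 2000 bases, against 35.2% of all. This ran through the whole transcriptome of CR2 and CR3. For genes up to 500 bases the median log2 deviation from the unrotated roots was 0.34 in CR2 and 0.35 in CR3, but 0.08 in CR1 and -0.24 to 0.13 in the unrotated libraries. For genes over 3000 bases it was -0.22 in CR2 and -0.17 in CR3, but 0.08 in CR1. The difference between the shortest and the longest class was 0.56 in CR2, 0.52 in CR3 and 0.00 in CR1, and -0.31 to 0.14 in the 12 unrotated libraries. Transcript length therefore separated CR2 and CR3 from CR1 and the 12 unrotated roots of the time course, the root libraries in which it was measured, and its part in the calls is given as the counts that follow.

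**Figure D3:**
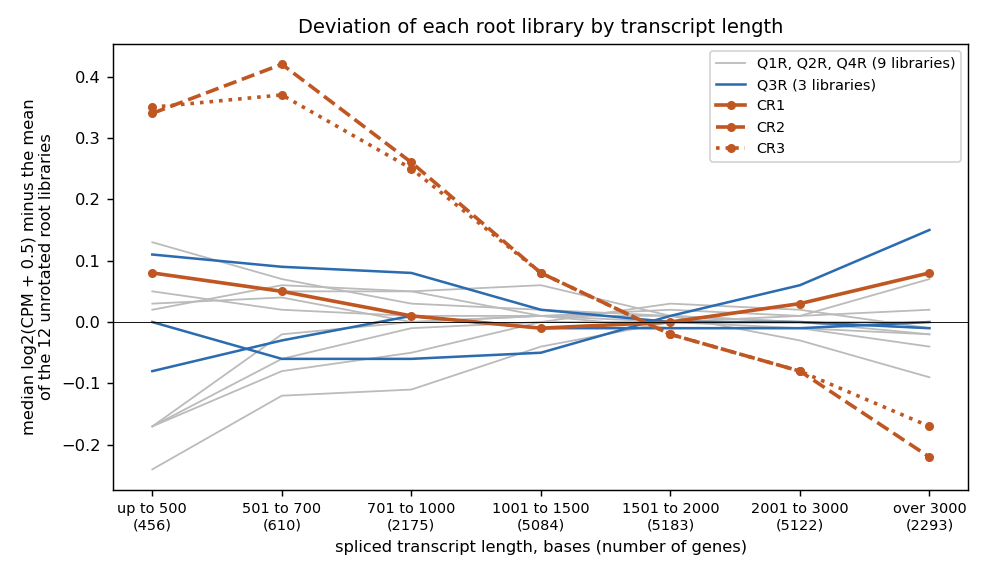
Median log2 deviation from the 12 unrotated root libraries (vertical axis) by spliced length class (horizontal axis, bases), 1 line for each root library. CR2 and CR3 fell from 0.34 and 0.35 in genes up to 500 bases to -0.22 and -0.17 in genes over 3000 bases, and CR1 stayed at 0.08 at both ends.

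With a smooth trend on length removed from each library, an alternative chosen after seeing the data, 38 genes were higher and 16 lower without CR1, of 21218 tested. Of these, 37 were among the 149 and 8 among the 17. By adjusted p alone 142 rose (0.669%) and 146 fell (0.688%). BGLU30 was called in this fit too, with a log2 fold change of 1.59 and an edgeR adjusted p of 0.0253. With all 6 libraries and the trend removed, 1 gene was called.

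Genes for RPL41, the smallest protein of the large ribosomal subunit, show the pattern in short transcripts. AT3G56020 was at 109, 138 and 155 CPM in Q3R and 117, 515 and 330 CPM in CR1, CR2 and CR3. AT3G11120 was at 79.1, 98.7 and 80.6 CPM in Q3R and 81.5, 314 and 224 CPM in CR, and AT3G08520 at 85.1, 102 and 106 CPM against 105, 279 and 247 CPM. AT1G56045 was at 145, 218 and 195 CPM against 158, 447 and 357 CPM. In all 4, CR1 was within the range of the unrotated roots and CR2 and CR3 were above it. Without CR1 the log2 fold changes were 1.66, 1.65, 1.43 and 1.12 in this order, with edgeR adjusted p of 0.00751, 0.0041, 0.00215 and 0.0137. With the length trend removed they were 1.16, 1.02, 0.68 and 0.58, and the last, with an adjusted p of 0.0651 in edgeR, no longer passed. AT3G08520 passed by adjusted p (0.0322 in edgeR) but was under the fold limit, so that AT3G56020 and AT3G11120 were the copies still called. The remaining copy, AT2G40205, was at or below 0.789 CPM in all 6 libraries and did not pass.

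The coding sequences are shown because the study counted uniquely mapped reads and the copies are near identical, so that reads within these stretches could be assigned only where copies differ or through the flanking bases. Each is 78 bases long (RefSeq, TAIR10.1). Capitals mark the bases that differ from AT3G08520, of which AT1G56045 has 6, AT2G40205 has 4, AT3G11120 has 3 and AT3G56020 has 1. Levels of single copies are uncertain to that extent.
AT3G08520: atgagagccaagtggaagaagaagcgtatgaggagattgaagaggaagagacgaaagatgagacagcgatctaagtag
AT3G56020: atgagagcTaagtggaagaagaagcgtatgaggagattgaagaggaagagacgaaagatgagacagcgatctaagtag
AT3G11120: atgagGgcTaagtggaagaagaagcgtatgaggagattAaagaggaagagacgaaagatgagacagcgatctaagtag
AT2G40205: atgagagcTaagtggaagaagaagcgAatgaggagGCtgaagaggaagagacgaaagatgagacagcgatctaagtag
AT1G56045: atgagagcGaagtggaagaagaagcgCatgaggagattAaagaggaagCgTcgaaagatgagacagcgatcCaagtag

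**Figure D4:**
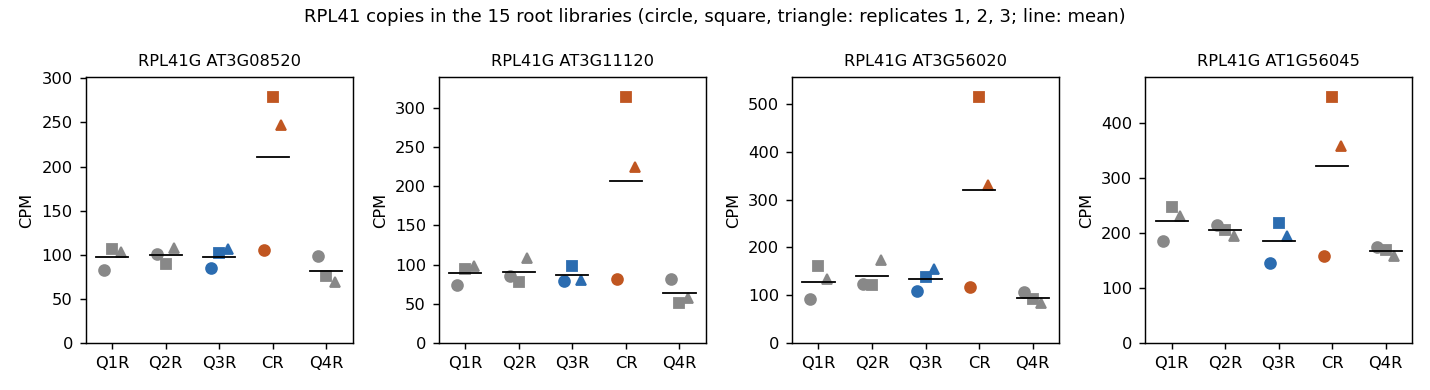
Levels in CPM (vertical axes) of RPL41 genes by root library, 1 point for each library. For AT3G56020, CR1 was at 117 CPM among the unrotated roots, while CR2 and CR3 were at 515 and 330 CPM.

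The 196 cytosolic ribosomal protein genes tested without CR1 show how far the length trend reached. Their median log2 fold change was 0.08, with 19 higher and 3 lower by adjusted p, and -0.18 with the trend removed, with 4 higher and 19 lower (all genes -0.00 in both). A direction for the family therefore flipped with this choice. With 6 libraries the median was -0.03 and 0 passed in edgeR, and DESeq2 gave 2 higher and 8 lower. At an unadjusted p of at most 0.05 in edgeR, 12 were higher and 34 lower. By that rule 2924 of all 21049 genes passed, higher and lower together.

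Some plastid-encoded transcripts were also higher in CR2 and CR3. Of 80 tested without CR1, 6 rose and 0 fell by the edgeR rule with the fold limit. Under that rule 0.698% of all genes rose and 0.0796% fell. The 6 were PSBA, RBCL and the ribosomal RNA entries RRN16S.1, RRN16S.2, RRN23S.1 and RRN23S.2. Each pair of ribosomal RNA entries is 1 gene held in a repeat, so the 6 are not independent genes. Of the 80, 51 had a positive and 29 a negative log2 fold change, against 10644 and 10708 of all genes. PSBA (ATCG00020), the D1 protein of photosystem II, was at 2.85, 6.45 and 0.841 CPM in Q3R and 1.55, 31.1 and 46.8 CPM in CR1, CR2 and CR3. RBCL (ATCG00490), the large subunit of Rubisco, was at 3.77, 4.91 and 1.33 CPM against 1.31, 20.2 and 14.1 CPM. RRN23S.1 (ATCG00950), a plastid ribosomal RNA held in a repeat with RRN23S.2, was at 0.902, 1.84 and 0.336 CPM against 1.16, 11.8 and 13.0 CPM. In each, CR1 was within the Q3R range or below it. Of the nuclear genes of the light harvesting complex, LHCB1.1 (AT1G29920) was at 0.755, 1.16 and 1.94 CPM in Q3R and 2.03, 13.1 and 4.51 CPM in CR. A near-identical copy, AT1G29910, was at 2.59, 1.92 and 2.33 CPM against 2.51, 13.8 and 6.84 CPM. These were the 2 green tissue markers that passed without CR1, and most listed genes of the family did not share their order. CR1 was the highest of the 6 libraries in LHCB1.3, LHCB2.1, LHCB4.1, LHCB4.2, LHCA1, LHCA2, LHCA3 and LHCA4, but not in LHCB2.2 or LHCB6. LHCB3 was at 16.5, 15.8 and 11.2 CPM in Q3R and 28.6, 19.5 and 20.9 CPM in CR, and LHCB5 at 45.4, 52.1 and 30.7 CPM against 72.4, 51.8 and 54.8 CPM, with CR1 the highest library in both. Of the Rubisco small subunit genes, RBCS3B was at 2.26, 3.88 and 3.31 CPM in Q3R and 2.23, 29.7 and 3.6 CPM in CR. RBCS-2B and RBCS-1B were also highest in CR2, at 8.81 and 7.13 CPM, against at most 2.41 and 0.835 CPM in the rest of the 6 libraries. RBCS-1A was instead highest in Q3R2, at 112 CPM. The libraries were selected for poly(A) tails, and plastid transcripts mostly lack them.

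Of the genes called with the trend removed, those described next were chosen after their values were seen. AIR1 (AT4G12550), known as an auxin-induced gene of root cultures, was at 9.68, 13.4 and 7.64 CPM in Q3R and 13.6, 58.8 and 39.7 CPM in CR1, CR2 and CR3. GRP5 (AT3G20470), a glycine-rich protein, was at 35.5, 26.8 and 30.8 CPM in Q3R and 40.9, 120 and 174 CPM in CR. The other unrotated roots held 4.72 to 16 CPM. PCAP2 (AT5G44610), a calcium-binding protein that destabilises microtubules, was at 87.3, 102 and 73.6 CPM against 113, 233 and 183 CPM. For AIR1 and PCAP2 CR1 was inside the range of the other unrotated roots. In all 3 genes CR1 was the lowest CR library and stood above Q3R, in AIR1 only narrowly (13.6 against 13.4 CPM in Q3R2). Their log2 fold changes without CR1 were 2.26, 2.25 and 1.25, with edgeR adjusted p of 0.00676, 0.00171 and 0.00887.

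CBL4 (AT5G24270), the calcium sensor SOS3 of salt tolerance, was at 12.3, 11.9 and 15.3 CPM in Q3R and 16.6, 26.9 and 22.2 CPM in CR. All CR libraries were above Q3R, CR1 least. SLAH1 (AT1G62280), a subunit of root anion channels, was lower, at 35.6, 30.1 and 44.7 CPM in Q3R and 22.5, 19.6 and 17.1 CPM in CR. In SLAH1 the 3 CR libraries were alike. XTH16 (AT3G23730), an enzyme that cuts and rejoins xyloglucan in the wall, was at 61.5, 67.8 and 49.6 CPM against 31.3, 35.6 and 24.7 CPM. Its edgeR adjusted p was 0.199 with 6 libraries and 0.0291 without CR1, with log2 fold changes of -0.96 and -0.99.

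Genes of gravity sensing and auxin transport were next compared as lists. Each list is set beside a median of 0.01 over all genes with 6 libraries and of -0.00 without CR1. With 6 libraries 10867 of all genes had a positive and 10182 a negative log2 fold change. At an unadjusted p of at most 0.05 in edgeR, 2924 of all 21049 genes passed, higher and lower together. Counts of list members below are by adjusted p alone, by which 2.34% of all genes rose and 1.5% fell without CR1. BGLU30, of the sugar starvation list, was the one list member that passed in edgeR with 6 libraries. Of 11 gravity sensing genes tested with 6 libraries, 0 passed in edgeR (0 were higher and 1 lower at an unadjusted p of at most 0.05, and DESeq2 gave 0), and the median log2 fold change was -0.02. PGMP, the plastid phosphoglucomutase needed for starch, was at 25.8, 22.7 and 23.9 CPM in Q3R and 23.0, 17.0 and 21.2 CPM in CR. ATJ15, the J-domain protein ARG1 of gravity signalling, was at 48.5, 54.5 and 49.6 CPM against 52.2, 57.2 and 50.9 CPM. The groups overlapped in both.

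Of 14 auxin transport genes 11 had a negative log2 fold change with 6 libraries, with a median of -0.14, and 0 passed in edgeR or DESeq2 (2 lower at an unadjusted p of at most 0.05). PIN2 (AT5G57090), the efflux carrier that moves auxin back from the tip, was at 132, 130 and 126 CPM in Q3R and 104, 116 and 91.6 CPM in CR. Its groups did not overlap, but both were inside the 86.7 to 148 CPM of the other unrotated roots. Its log2 fold change of -0.31 ± 0.12 (SE) had an edgeR adjusted p of 0.298. With the length trend removed from the 6 libraries it was -0.22 (edgeR adjusted p = 0.437). Without CR1 2 members fell, namely the auxin exporters ABCB1 (-0.60, edgeR adjusted p = 0.0394) and ABCB19 (-0.51, edgeR adjusted p = 0.0414). With the length trend removed they were at -0.31 and -0.24, with adjusted p of 0.154 and 0.256 in edgeR, and 0 members passed. The median length in this list was 2739 bases. Of 24 auxin response genes 0 passed in either fit, with a median of -0.16 and of -0.26 without CR1.

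The touch and calcium list had a median of 0.20, with 11 of 13 genes positive. XTH22, the touch gene TCH4, was at 11.3, 10.6 and 20.2 CPM in Q3R and 12.3, 11.4 and 19.9 CPM in CR. CML12, the touch gene TCH3, was at 5.45, 7.74 and 15.2 CPM against 8.25, 7.78 and 9.87 CPM. The groups overlapped in both. Without CR1 2 calmodulin-like genes rose, CML11 by 0.72 and CML24 by 0.66 on the log2 scale (edgeR adjusted p 0.0445 and 0.0484). With the trend removed neither passed, at log2 fold changes of 0.65 and 0.66 that were about as large (edgeR adjusted p 0.0808 and 0.0667).

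Most heat shock genes had a positive log2 fold change. With 6 libraries 23 of 25 were positive with a median of 0.28, and 0 passed in edgeR, where 5 were higher and 0 lower at an unadjusted p of at most 0.05 and DESeq2 gave 2 higher. Without CR1 the median was 0.51 and 3 rose. HSFA7A (AT3G51910), a heat shock factor, was at 24.4, 30.5 and 25.1 CPM in Q3R and 35.7, 60.5 and 52.4 CPM in CR. HSFB1 (AT4G36990), another, was at 144, 156 and 128 CPM against 146, 221 and 233 CPM, and the chaperone HSP18.1 was at 12.2, 9.11 and 8.07 CPM against 14.4, 16.7 and 21.0 CPM. With the trend removed 2 still passed, HSFA7A and HSFB1, while HSP18.1 went from 0.95 to 0.72 (edgeR adjusted p = 0.137), and the median was 0.40.

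All 8 genes of root triterpene synthesis were positive, with a median of 0.50, and 0 passed in edgeR, where 4 were higher and 0 lower at an unadjusted p of at most 0.05. DESeq2 gave 3 higher by adjusted p, as it did 256 of the 24900 genes with a p-value, some of which had no adjusted p. Without CR1 the median was 0.47. Thalianol synthase THAS1 was at 61.1, 74.1 and 61.0 CPM in Q3R, 100, 84.8 and 108 CPM in CR and 79.6 to 152 CPM elsewhere, so that Q3R was below all 9 other unrotated libraries. Its edgeR adjusted p was 0.204 with 6 libraries and 0.0601 without CR1. All 23 green tissue markers were positive, with a median of 0.51, in the roots whose summed green level is given above. Of these 0 passed in edgeR, where 11 were higher and 0 lower at an unadjusted p of at most 0.05, and DESeq2 gave 1 higher. Of 13 root hair genes 11 were negative, with a median of -0.34. Without CR1 the wall proteins PRP3 (-0.98) and LRX2 (-1.0) fell, and with the trend removed PRP3 passed and LRX2, at -0.91, did not (edgeR adjusted p = 0.0707). All 7 extensins, structural wall proteins, were negative with a median of -0.54, and 0 passed in edgeR or DESeq2 (1 was lower at an unadjusted p of at most 0.05).

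The sulfur list of 12 genes had a median of 0.10 with 6 libraries and 0.14 without CR1, where the sulfur deficiency genes LSU1 (1.63) and LSU2 (0.84) rose. With the trend removed they were at 1.26 and 0.53 (edgeR adjusted p 0.0593 and 0.218). LSU1 was at 7.15, 10.1 and 5.7 CPM in Q3R and 5.01, 17.5 and 29.6 CPM in CR. In the phosphate list, with 8 of 10 negative and medians of -0.32 and -0.36, PS2 and PHO1, which loads phosphate into the xylem, fell without CR1, and both passed with the trend removed too. PHO1 was at 578, 428 and 424 CPM against 504, 247 and 283 CPM, so that CR1 lay within Q3R. In the nitrate list, with medians of -0.29 and -0.32, the ammonium transporter AMT1-2 fell without CR1 by 0.66 on the log2 scale (edgeR adjusted p = 0.0497). It was at -0.59 with the trend removed (edgeR adjusted p = 0.0876). Of 26 ethylene genes 0 passed by edgeR or DESeq2 with 6 libraries (1 was higher and 1 lower at an unadjusted p of at most 0.05), and the median was 0.05. Low oxygen genes had a median of -0.13 with 6 libraries and 0.04 without CR1, where 1 of 31, AT3G03270, rose by 0.88 (edgeR adjusted p = 0.0183). It was at 0.91 with the trend removed (edgeR adjusted p = 0.0303).

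Of the remaining lists, 15 of 17 iron uptake genes were negative with 6 libraries, with a median of -0.37, and 0 passed in edgeR or DESeq2, nor did any at an unadjusted p of at most 0.05. Without CR1 their median was -0.19. Cold and abscisic acid genes had medians of 0.29 and 0.43, and KIN2 rose without CR1 by 0.84 (edgeR adjusted p = 0.0158). With the trend removed KIN2 was at 0.49 and did not pass (edgeR adjusted p = 0.091). The medians with 6 libraries and without CR1 were 0.16 and 0.24 for early stress regulators, 0.07 and 0.03 for clock genes, -0.14 and -0.10 for jasmonate genes, -0.22 and -0.08 for defense genes, and -0.04 and -0.14 for antioxidant genes. Of 45 glutathione S-transferases 4 rose without CR1, and with the trend removed 1 was higher and 1 lower. Of 39 SAUR genes tested without CR1, a family of small auxin-induced transcripts, 3 rose, and their median went from 0.14 to -0.03 with the trend removed.

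**Figure D5:**
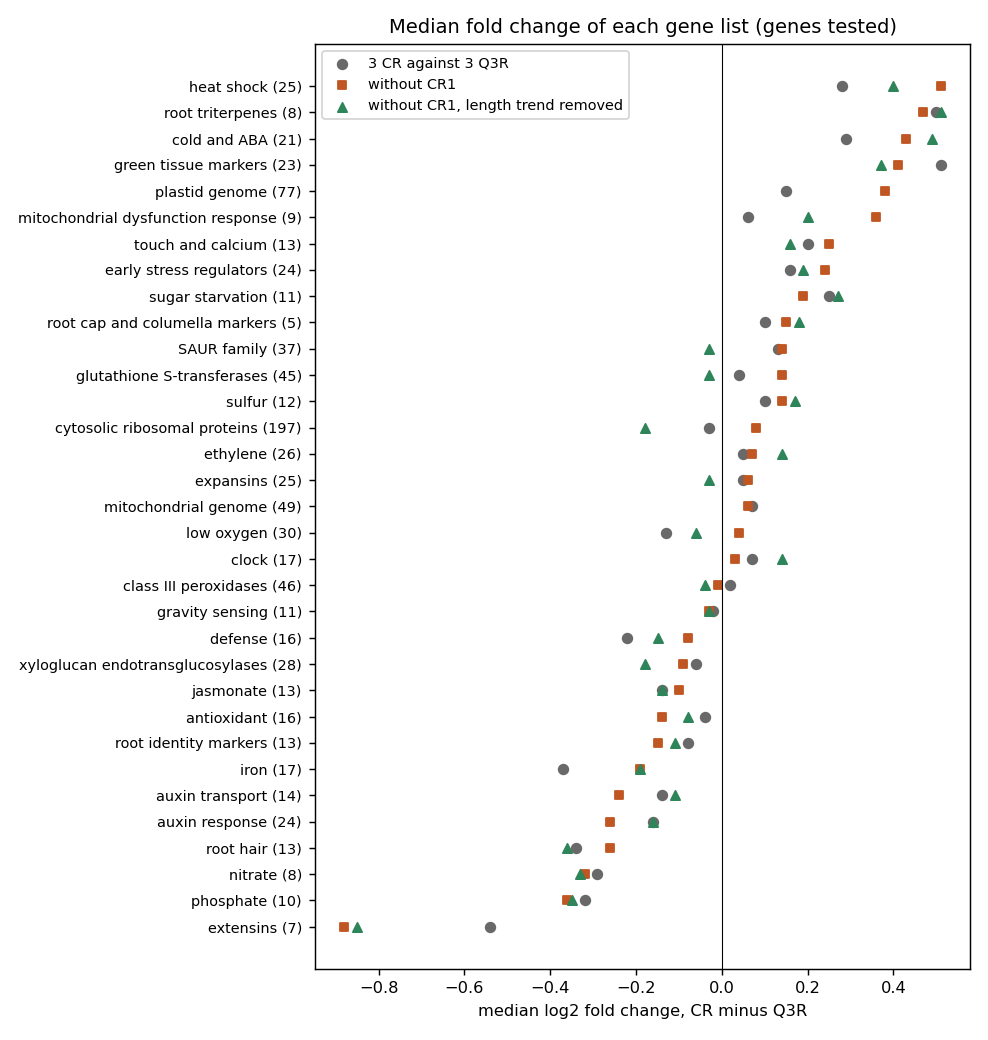
Median log2 fold change of CR over Q3R (horizontal axis) for the gene lists, except the 5 seed storage genes tested, with 6 libraries, without CR1, and without CR1 after removal of the length trend. Heat shock genes sat at 0.28, 0.51 and 0.40, and cytosolic ribosomal proteins crossed 0 from 0.08 to -0.18 when the trend was removed.

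Leaves from the same KFTs were set beside the roots. BGLU30 was at 0.62, 85.3 and 6.41 CPM in the Q3 leaves and at 1.23, 0.06 and 0.35 CPM in the clinostat leaves, with a spread among Q3 leaves that left the difference from roots at an edgeR adjusted p of 0.167. The test of whether clinorotation differed between roots and leaves, as an interaction term over 12 libraries, called 7 of 22493 genes (0.0311%). Of 164 genes picked by the rules for named genes given below and tested in that fit, 0 were called. The 7 called genes are not among these and are described further below.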

How the data were processed

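Poly(A) RNA of roots and leaves was made into directional libraries and sequenced by the authors, who trimmed reads with cutadapt, mapped them to the TAIR10 genome with STAR and counted uniquely mapped reads for each gene with HTSeq. The deposited tables hold these counts per gene, not normalized, beside columns of the authors' own DESeq2 fold changes and p-values, which were not used. Whether counting used the strand is not given in the sources used here, so overlapping and antisense genes are uncertain (36 of 143 higher genes without CR1, 25.2%, and 29.9% of all). Counts of a library were identical wherever it stood in several tables. Totals ran from 34273236 to 117091661 counts, which limits the precision of low genes.

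Counts were filtered with filterByExpr, scaled by TMM and tested with the edgeR quasi-likelihood test (edgeR 4.0.16, R 4.3.3), with adjustment over all genes, and with DESeq2 1.42.0 as an alternative. A simulation covered only the edgeR test of CR against Q3R. It had less spread between libraries than the real ones and no length trend. CPM are TMM-scaled over 15 root libraries. Lengths are from RefSeq TAIR10.1, matched by locus for 24712 of 24929 genes with a count, and the files themselves hold no coordinates. The length trend was a loess curve (span 0.5) on log spliced length, entered as an offset. Organelle genes had no length and left that fit.

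Named genes were all DEGs up to 14 in each direction, the 8 with the greatest fold change in each direction without CR1 and by DESeq2, list members past an adjusted p of 0.05, up to 8, or else the first 2, and tissue markers. Values are printed for some of them only, picked after seeing the values. The comparison, its members and the lists were chosen with earlier results of these data known. Alternatives were another tool and scaling, no filter, thinning, organelle genes left out, 15 root libraries in 1 fit, a replicate block, each library left out, and, added after seeing the data, the length trend and repeats of the fit without CR1.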

Additional observations from a re-analysis of the deposited data

Results flagged for a closer look

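For 7 genes the effect of clinorotation differed between roots and leaves by the interaction term of edgeR, given here as root minus leaf on the log2 scale. In roots none of the 7 was called between CR and Q3R. For CYP81D11 and AT5G05600 roots and leaves moved in opposite directions, each without overlap between groups. FLS2 (AT5G63580, 9.33), AT5G35580 (8.1) and SOT8 (7.96) were at 0 in all 3 clinostat leaf libraries and at 0.235 to 0.774 CPM in the Q3 leaves, so these fitted values depend on the prior count and are no measure of size. LTP3, a lipid transfer protein, differed by 5.91, with at most 0.0817 CPM in clinostat leaves and 1.24 to 2.22 CPM in Q3 leaves. MLO15 differed by -4.4, with leaf levels of at most 1.35 CPM. CYP81D11, a cytochrome P450, differed by 2.52. In roots it was at 32.6, 30.4 and 19.2 CPM in Q3R and 36.5, 39.1 and 40.7 CPM in CR, and in leaves at 42.4, 55.7 and 28.8 CPM and 8.46, 10.7 and 12.7 CPM. AT5G05600 differed by 2.34. It was at 46.0, 49.8 and 45.5 CPM in Q3R and 66.5, 73.8 and 68.2 CPM in CR, and at 12.4, 24.0 and 11.3 CPM in Q3 leaves and 5.43, 3.85 and 4.9 CPM in clinostat leaves. Each leaf condition came from 1 KFT, shared with its roots.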

How the results depend on the processing

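With 6 libraries, 1 gene was called in the edgeR fit. DESeq2 called 43, the fit with no filter on low counts 14, the fit on libraries thinned to the shallowest 0, the fit over all 15 root libraries 0, and an unadjusted p with the same fold 237. Leaving out 1 library gave 0 to 166 genes, with 166 only without CR1. Size factors of DESeq2 in edgeR and the omission of organelle genes left the count at 1. The replicate block gave 9. The numbers did not pair the samples, since same-numbered deviations correlated at 0.0132, 0.0354 and -0.0939. BGLU30 kept its direction in all 14 alternatives and was called in 8, with log2 fold changes of 1.38 to 1.68 and adjusted p of 5.65e-12 to 0.267 over edgeR and DESeq2.

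Without CR1, 166 genes were called, 253 with no filter, 248 by DESeq2 and 54 with the length trend removed. Leaving out a further library gave 29 to 219 genes. Without CR1 and Q3R1 it was 68, without CR1 and CR2 29, and without CR1 and CR3 35, where CR was 1 library assumed to vary like Q3R. The interaction called 7 genes, 12 without CR1 and 10 with no filter. No named gene reversed its direction as called. Among 34 list medians, 6 moved by more than the spread without CR1 and 9 without Q3R3. The causes were not tested, and with 1 KFT for each condition no setting separates vessel from rotation.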
